A study of Bos taurus with 18 samples.

Results

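The 300 annotated gene models whose levels varied most between libraries of bovine pituitary and hypothalamus are described here. They were taken from 27376 gene models with deposited read counts, of which 21377 carry a number from the annotation and 5999 are listed as new. Counts were divided by the library total and multiplied by 1000000 (CPM), and 12325 numbered gene models reached a median of 5 CPM over 17 of the 18 libraries. Members were selected on their measured levels: the 300 with the largest variance of log2(CPM + 1) over those 17 libraries form the set, and the 18-month pituitary replicate 3 was left out of the choice. Because these levels chose the set, their spread and their grouping are given as a description without a test; the tests of tissue and age further on use the same libraries.

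Poly(A) RNA was sequenced from the upper hypothalamus and the pituitary gland of 9 healthy Angus cows, 3 at each of 3 ages. Cows of 6 months had just been weaned, cows of 18 months were sexually mature, and cows of 30 months had borne a first calf. None was in heat. Each of the 6 combinations of tissue and age held 3 libraries, 1 from each cow, and no label describes which cells of either tissue were taken. Replicate numbers follow the order of the samples, and nothing else in the labels distinguishes cows of an age.

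The hypothalamus releases small peptides that control the pituitary, and the pituitary answers with hormones for growth, lactation, the thyroid, the adrenal and the gonads. Both are mixed tissues. The pituitary holds several classes of endocrine cells, and the hypothalamus holds neurons, astrocytes and oligodendrocytes. In bulk RNA, fewer cells of a type and less RNA per cell cannot be told apart. The deposited tables give the gene models by number, and 0 of the 300 numbers could be matched to a symbol, so the markers of these cell types were not measured and the label of each tissue was not checked against them.

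Library totals lay between 28724861 and 38036840 counts. The set took between 1.72% (18-month pituitary replicate 2) and 3.15% (18-month hypothalamus replicate 3) of a library's counts. The left-out library stood apart: over the 12325 gene models, log count correlated with log length at r = -0.14, against -0.016 to 0.212 in the others. There, 63.6% of its reads at exonic sites of single-nucleotide polymorphisms (SNPs) lay in 3′ untranslated regions, against 42.3% to 50.2% in the others. The 18-month hypothalamus replicate 2 held the next lowest correlation and the next highest share.

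The set spanned variances from 9.57 for gene11244 to 1.59, where the median over all 12325 gene models was 0.122. The highest library exceeded the lowest by a median ratio of 31.6 among the 300 and of 2.46 among all 12325. The set ended without a step: gene27644 (1.5882) and gene13183 (1.588) were the last taken, and gene349 (1.5811) and gene11780 (1.5787) were the first left out. The median length of the gene models was 6219.5 bases, close to the 6122 bases of all 12325, and the range was 604 to 44097 bases.

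Grouping the 300 profiles by correlation into 6 clusters gave 2 large ones, of 190 and 81 gene models, and 4 small ones with 9, 9, 7 and 4. The first principal component of the centred levels carried 48.0% of their variance, and the next carried 8.09% and 7.73%. The largest cluster was low in 4 libraries from 4 different cows. Its median log2 deviation from each gene model's own median was -2.01 and -2.68 in replicates 1 and 3 of the 6-month hypothalamus, -2.93 in replicate 2 of the 18-month pituitary and -2.26 in replicate 2 of the 30-month hypothalamus. Intermediate values were -0.93 in the pituitary at 30 months (replicate 2) and -0.74 in the hypothalamus at 18 months (replicate 2), and in the other 11 libraries it lay between -0.13 and 0.27. These 4 libraries were singled out after the levels had been seen. The low libraries came from both tissues and all 3 ages, and in each of the 5 groups that held a low or intermediate library another replicate was not lowered.

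**Figure D1:**
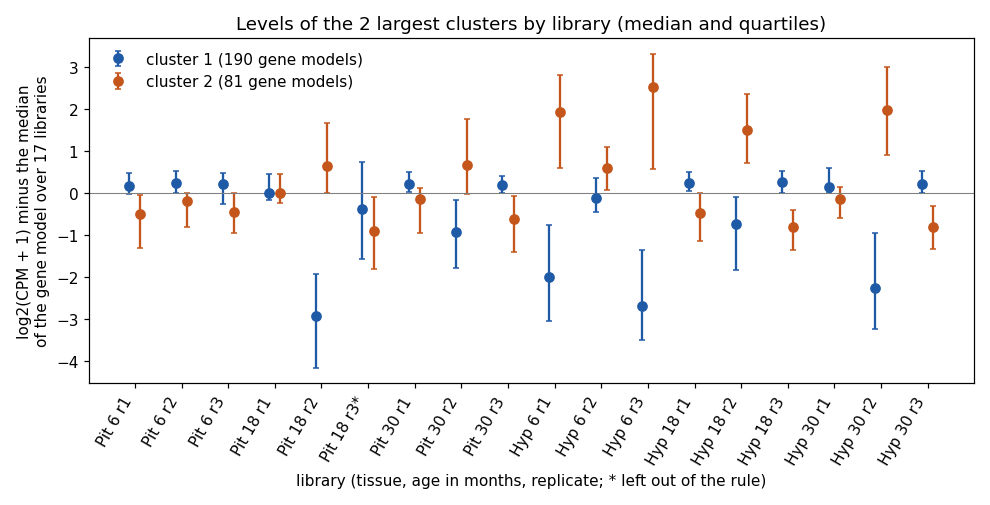
Median level of the 2 largest clusters in each of the 18 libraries, as log2(CPM + 1) minus the gene model's median over the 17 libraries of the choice; bars run from the lower to the upper quartile over gene models. Cluster 1 (190 gene models, blue) falls below -2 in 4 libraries, and cluster 2 (81 gene models, orange) is highest in 3 of these 4.

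The cluster of 81 ran largely the other way. Its median deviation was 1.91 and 2.51 in replicates 1 and 3 of the 6-month hypothalamus, 1.97 in replicate 2 at 30 months and 1.48 in replicate 2 at 18 months of the same tissue. It was 0.64 to 0.66 in the 18-month and 30-month pituitary replicates 2, and 0.59 in the 6-month hypothalamus replicate 2. The 18-month pituitary replicate 2, where the largest cluster was lowest, therefore raised the second cluster less than the low hypothalamus libraries did. The lowest medians of the second cluster among the 17 libraries were -0.81, in replicate 3 of the hypothalamus at both 18 and 30 months.

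Counting gene models at least 2-fold from their own median on the log2(CPM + 1) scale gave the same picture library by library. The 18-month pituitary replicate 2 lowered 175 of the 300 (58.3%), where 10.9% of all 12325 were lowered, and raised 38 (12.7%, against 9.77%). At 6 months the hypothalamus replicate 3 lowered 161 (53.7%, against 9.18%) and raised 60 (20%, against 5.2%). At 6 months the hypothalamus replicate 1 lowered 134 (44.7%, against 5.14%) and raised 67 (22.3%, against 5.05%). At 30 months the hypothalamus replicate 2 lowered 150 (50%, against 6.16%) and raised 70 (23.3%, against 4.37%). The intermediate pituitary library lowered 106 (35.3%, against 4.19%) and raised 50 (16.7%, against 6.04%). The intermediate hypothalamus library lowered 87 (29%, against 5.64%) and raised 64 (21.3%, against 3.27%), which was above the 60 and the 38 raised in 2 of the 4 low libraries. At 6 months the hypothalamus replicate 2 raised 49 (16.3%, against 1.28%) and lowered 26, and the remaining 10 libraries raised 18 to 30 each. The 11 libraries of the choice that were neither low nor intermediate lowered 26 to 61 each, and 0.852% to 2.6% of all 12325. Since the variance chose the members, these counts describe where it came from and support nothing further.

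**Figure D2:**
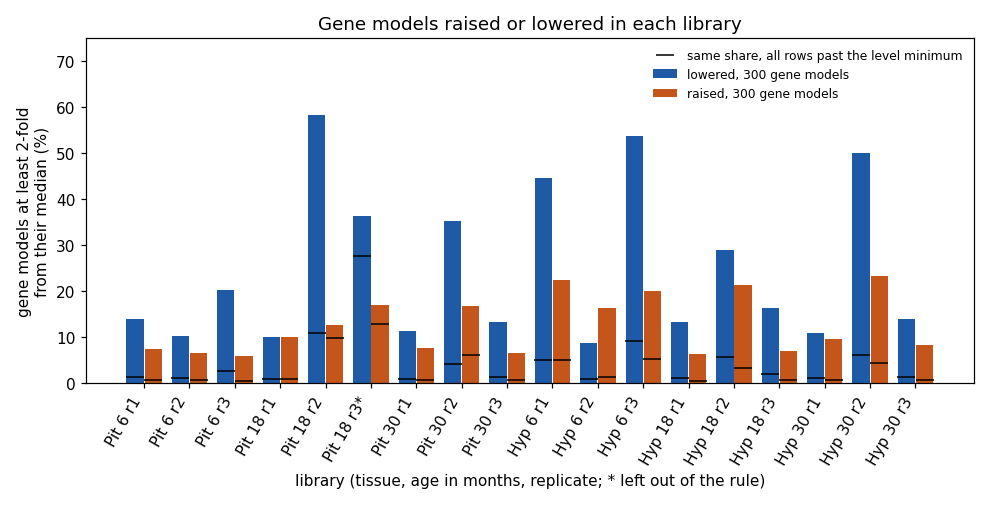
Percent of the 300 gene models at least 2-fold below (blue) or above (orange) their own median in each library, with black marks for the same percent over all 12325 gene models past the level minimum. The 4 libraries that lower the largest cluster reach 44.7% to 58.3% lowered; the left-out library (asterisk) has marks of 27.7% and 12.9% of its own.

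Many members were lowered in more than 1 of the 4 libraries. Of the 300, 97 were lowered in all 4, and 84 were lowered in none. All 97 belonged to the largest cluster, whose fall had singled out the 4 libraries, so this was largely set by that choice. In 84 of the 300 (28%) each of the 4 libraries lay below each of the other 13, which held for 6.83% of all 12325. The hypothalamus libraries of 30 months, replicate 2, and of 6 months, replicate 3, shared 128 lowered members, which was 85.3% of those lowered in the first and 79.5% of those in the second. They also shared 51 raised members (72.9% and 85%). These shared counts, and those lowered in all 4 or in none, were not taken over all 12325 gene models. Over the 300 members, deviations in any 2 of the 4 libraries correlated at r = 0.58 to 0.79 (6 pairs). The intermediate libraries shared the pattern in part: the one from the hypothalamus correlated with the 4 low libraries at 0.42 to 0.49, the one from the pituitary at 0.34 to 0.36, and the 2 with each other at 0.38. Over all 56 pairs with 1 of the 4, r ran from -0.46 to 0.49, with a median of -0.17. Among the 91 pairs without any of the 4, r ran from -0.30 to 0.38, with a median of 0.098. These correlations are across gene models, which are not independent replicates.

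Length moved with this division. The median length was 7307 bases in the largest cluster and 4826 bases in the second. Over the 12325 gene models, log count correlated with log length at 0.081 to 0.138 in the 4 low libraries, at 0.134 and -0.016 in the 2 intermediate ones and at 0.158 to 0.212 in the other 11. The 3′ share of exonic site reads was 42.9% to 45.5% in the 4 low libraries and 42.3% to 46.4% in the other 11, and these ranges overlapped. In the 2 intermediate libraries it was 43.2% (pituitary) and 50.2% (hypothalamus), the second above both ranges. The part of length or of the 3′ share in the levels was not tested.

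The 3 members closest to the mean profile of the largest cluster were gene6615, gene13095 and gene1171. gene1171 has 19099 bases and exonic SNP sites between positions 147132689 and 147360364 of chromosome 1. In the pituitary it measured 787, 735 and 816 CPM at 6 months, 602, 13.5 and 403 CPM at 18 months, and 748, 224 and 840.2 CPM at 30 months. The hypothalamus gave 27.6, 480.0 and 18.6 CPM at 6 months, 764, 337 and 987 CPM at 18 months, and 680.2, 17.4 and 826 CPM at 30 months. The 4 low libraries lay between 13.5 and 27.6 CPM and no other library fell below 224 CPM. gene6615, on chromosome 5, ran from 29.7 CPM in the 18-month pituitary replicate 2 to 877 CPM, with a median of 582 CPM, and gene13095, on chromosome 10, ran from 16.5 CPM in the same library to 227 CPM, with a median of 154 CPM.

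The members closest to the mean of the second cluster were gene368, gene17400 and gene1247. gene368 has 1654 bases and exonic SNP sites between positions 60856261 and 60957129 of chromosome 1. Its pituitary values were 58, 42.8 and 47.2 CPM at 6 months, 74.5, 173 and 61.9 CPM at 18 months, and 54.2, 107 and 24.8 CPM at 30 months. Its hypothalamus values were 346, 129.7 and 508 CPM at 6 months, 52.8, 308 and 32.6 CPM at 18 months, and 44.6, 476 and 29.1 CPM at 30 months. At 6 months the hypothalamus lay above the pituitary without overlap, and at 18 and 30 months the tissues overlapped. gene17400, on chromosome 15, and gene1247, on chromosome 1, peaked in the same library, the 6-month hypothalamus replicate 3, at 179 and 114 CPM, and had medians of 13.9 and 9.91 CPM.

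The 12 members with the largest variance fell into more than 1 kind of profile. gene11244, gene26834, gene7069 and gene30988 were at or below 5 CPM in the 4 low libraries alone. gene11244 has 20009 bases and exonic SNP sites between positions 28202560 and 28213748 of chromosome 9. It measured 185, 319 and 265 CPM in the 6-month pituitary, 246, 0.61 and 286 CPM in the 18-month pituitary, and 244, 65.9 and 240.2 CPM in the 30-month pituitary. In the hypothalamus it measured 0.719, 186 and 0.806 CPM at 6 months, 360.1, 83.8 and 268 CPM at 18 months, and 214, 0.657 and 259 CPM at 30 months. The 4 low libraries were all below 1 CPM and the other 14 all above 65 CPM. gene26834 (chromosome 23) lay between 0.672 and 4.94 CPM in the 4 libraries and between 112 and 429 CPM in the other 13 of the choice. gene7069 (chromosome 5) lay between 0.305 and 0.836 CPM against 46.4 to 131 CPM, and gene30988 (X chromosome) between 0 and 0.988 CPM against 31.4 to 111 CPM.

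The other 8 members of the 12 were at or near 0 in libraries that differed from gene model to gene model. gene13681, of 3763 bases, was at or below 0.139 CPM in 5 libraries of the choice and reached 119 CPM. gene9580, of 4708 bases, had no count in 6 libraries and reached 61.6 CPM. gene10714, of 675 bases, had none in 5 and reached 80.2 CPM, and gene3768, of 1952 bases, had none in 2 and reached 124 CPM. gene8839, of 1069 bases, was at or below 1.03 CPM in 3 libraries against a median of 149 CPM, and gene14491, of 8151 bases, was at or below 5.8 CPM in 4 against a median of 181 CPM. gene5026 and gene11043 are described further on. A count of 0 in at least 1 library of the choice occurred in 39 of the 300 (13%), against 51 (0.414%) of all 12325 gene models past the level minimum. Beside a median of at least 5 CPM, such a count adds to the variance that chose the set, so these shares cannot be compared.

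A second readout of the same reads came from the table of 992284 SNP sites, which gives the read depth at each called site with the number of the gene model it lies in. These site reads come from the same libraries and count bases at called sites only, where a site without a call enters as 0 reads, so they show whether a change in counts is visible at the sequence and are no independent sample. Of the 300, 244 had exonic sites, each on a single chromosome, and 230 had a mean of at least 10 site reads per library. Site reads were scaled to 1000000 exonic site reads of the library and are given on that scale as RPM. For each member, log2(CPM + 1) was correlated with log2(RPM + 1) over the 17 libraries.

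Agreement was high in the 2 large clusters and low in the small ones. The correlation was at least 0.7 in 160 of the 230 (69.6%), against 47.2% of 9977 gene models with site reads, and the medians were 0.916 and 0.674. The set was chosen for its spread, on which the size of a correlation depends. In the cluster of 190 the median was 0.941 over 138 members, with 108 at 0.7 or above. The cluster of 81 had a median of 0.925 over 69 members, with 48 at 0.7 or above. The 4 small clusters had medians of 0.28, 0.16, 0.33 and 0.022 over 8, 7, 6 and 2 members, and 17 members of the 230 had a correlation below 0. Without the 4 libraries that lowered the largest cluster, 54.3% of members reached 0.7, against 36.2% of all gene models with site reads.

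**Figure D3:**
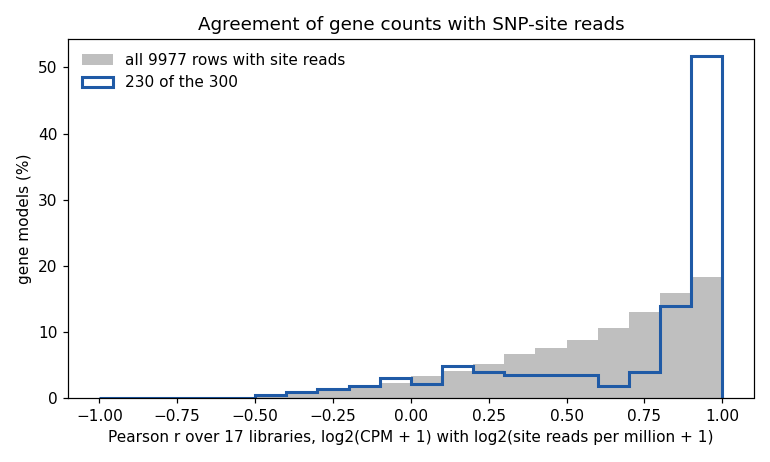
Distribution of the correlation between gene counts and SNP-site reads over 17 libraries, as a percent of gene models in steps of 0.1, for 230 of the 300 members (blue line) and for all 9977 gene models with site reads (grey). The members pile up above 0.9, and a low tail of members reaches below 0.

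The highest correlations belonged to gene11244 and gene9936 (both 0.998) and to gene7723, gene20217 and gene1472 (all 0.997). gene11244 had no site read in any of its 4 low libraries and between 25 and 135 RPM of site reads in the other 13. In the left-out library it had 286 CPM but 2.92 RPM of site reads, and its correlation over all 18 libraries was 0.917. gene9936, on chromosome 7, carried 27 of its 28 exonic sites in its 3′ untranslated region. In the 4 low libraries its site reads were 18.8 to 37.6 RPM, against 524 to 1911 RPM in the other 13. gene20217 is a member of the second cluster with 5630 bases and 22 exonic sites between positions 63683022 and 63783153 of chromosome 17. Its pituitary levels were 28.1, 20.7 and 15.6 CPM at 6 months, 41.4, 55.9 and 3.12 CPM at 18 months, and 25, 44.8 and 9.94 CPM at 30 months. Its hypothalamus levels were 342, 90.1 and 287 CPM at 6 months, 26.7, 145 and 15.9 CPM at 18 months, and 21.6, 251 and 10.2 CPM at 30 months. Its site reads ran from 44.4 to 1357 RPM in the 17 libraries and rose and fell with the counts.

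**Figure D4:**
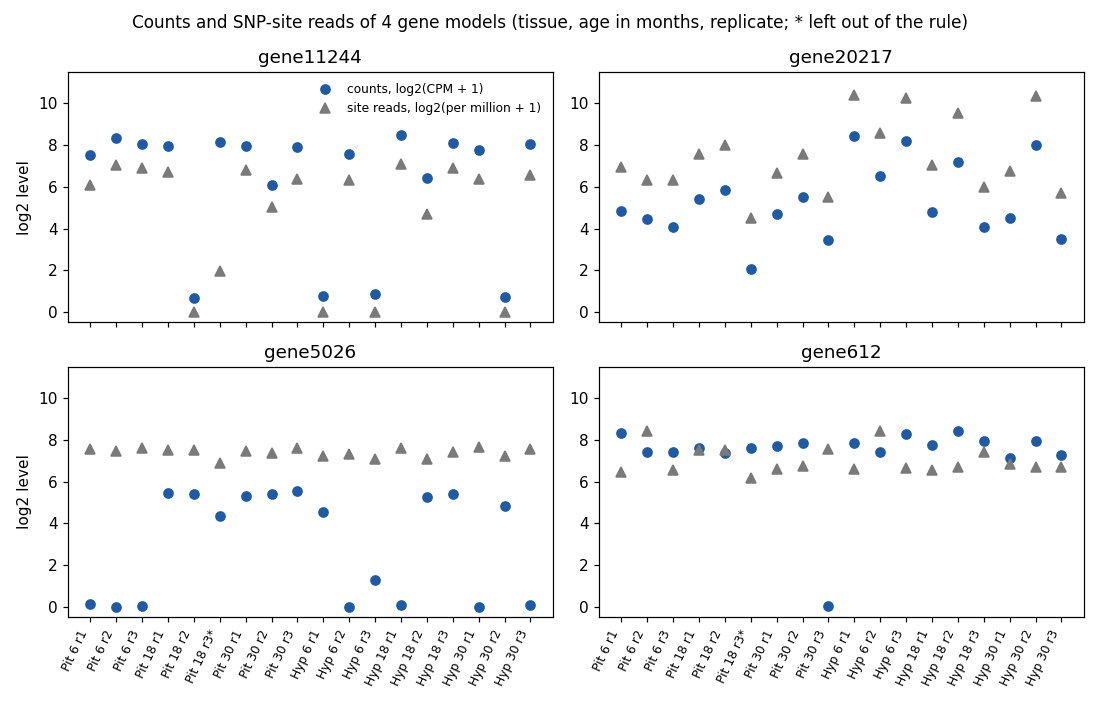
Gene counts (blue circles) and SNP-site reads (grey triangles) of 4 gene models in each of the 18 libraries, as log2(CPM + 1) and log2(RPM + 1). In gene11244 and gene20217 the triangles follow the circles over the 17 libraries of the choice. In the left-out library (asterisk) the triangle of gene11244 lies far below its circle. In gene5026 and gene612 the circles drop to near 0 and the triangles do not drop with them.

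The lowest correlations belonged to gene24688 (-0.46), gene5026 (-0.33), gene14156 (-0.31), gene612 (-0.28) and gene31938 (-0.28). gene612, of 2090 bases, has 3 exonic sites between positions 83583108 and 83587954 of chromosome 1. A single read gave 0.0321 CPM in replicate 3 of the 30-month pituitary, and the other 17 libraries lay between 141 and 338 CPM. Its site reads in that library were 189.8 RPM, within the 70.1 to 347 RPM of the others, so the drop in counts had no counterpart at the sites. gene24688, of 1078 bases, had 0 counts in the 30-month hypothalamus replicate 1 and 173 RPM of site reads there, above the 39.1 RPM of the 6-month pituitary replicate 1, where its counts were the highest of the 17 libraries at 29.1 CPM.

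The agreement was then counted drop by drop. The limits used here, a fall of at least 8-fold below the gene model's median with site reads at least 2-fold below theirs, were chosen after the values had been seen. In the 17 libraries there were 337 such falls in 146 members. Site reads were also low in 223 of them (66.2%), near their median in 110 and high in 4. In the largest cluster site reads were low in 210 of 244 falls (86.1%). In the second cluster the number was 5 of 49 (10.2%), and in the 4 small clusters 8 of 44 (18.2%). Falls, and the rises given below, were counted among members only and not over all 9977 gene models with site reads. Whether these shares are particular to the set was therefore not measured.

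Falls in the 4 low libraries were mostly visible at the sites, and falls in most other libraries were not. Site reads were low in 62 of 65 falls in the low pituitary library of 18 months. In the low hypothalamus libraries they were low in 34 of 40 and 52 of 59 falls at 6 months (replicates 1 and 3) and in 40 of 46 at 30 months. The intermediate libraries had 19 of 25 (30-month pituitary) and 8 of 13 (18-month hypothalamus), and the left-out library had 24 of 30. In each remaining library site reads were low in at most 20% of falls. They were low in 0 of 10 falls in replicate 1 of the 18-month hypothalamus. In replicate 1 of the pituitary they were low in 0 of 5 at 18 months and 0 of 6 at 30 months. Rises of at least 8-fold numbered 83, and site reads were high in 68 of them (81.9%), 65 of which were among the 72 rises of the second cluster.

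A fall with site reads within 2-fold of their median occurred in 47 members, and in 38 of these site reads followed a fall in no library. The 27 members that had site reads and a count of 0 in at least 1 library had a median correlation of 0.487, with 12 at 0.7 or above. The 203 members with site reads and no count of 0 had a median of 0.927, with 148 at 0.7 or above. An example, chosen after its values were seen, is gene3045, of 2328 bases, with exonic sites between positions 20771409 and 20773550 of chromosome 3. It had 0 counts in the 18-month pituitary replicate 1 and the 30-month hypothalamus replicate 3 and 2826 to 7346 counts in the other 16 libraries. Its site reads in those 2 libraries were 449 and 487 RPM, within the 243 to 542 RPM of the rest.

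Neighbouring gene models offered a further view, because consecutive numbers lay on the same chromosome wherever both gene models had sites. The set held 11 pairs with consecutive numbers. In 5 of them the profiles correlated above 0.5, from gene15599 and gene15600 (0.91) to gene1471 and gene1472 (0.99). Each of these 5 lay within 1 of the 2 large clusters, which group profiles by correlation. Such counts were not made for other pairs of gene models, so nothing follows about neighbours as a class. In 2 pairs the correlation was below -0.5. Of these, gene10714 and gene10715 were at -0.65, and both belonged to the largest cluster. gene5361 and gene5362, at -0.94, have sites that end at position 113525303 and start at position 113528400 of chromosome 4.

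gene5361 measured 239, 34.2 and 253 CPM in the 6-month pituitary and gene5362 measured 14.8, 202 and 18.1 CPM. In the 6-month hypothalamus gene5361 measured 24.9, 164 and 27 CPM and gene5362 measured 225, 31.1 and 213 CPM. In each of these 6 libraries 1 gene model of the pair was high and the other low, and the same held in the other 12. Site reads did not show such an exchange. Those of gene5361 followed its counts (r = 0.835) over a narrower range, 27.3 to 88.7 RPM in the 17 libraries, and those of gene5362 stayed between 711 and 966 RPM (r = 0.303).

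Counts also moved in opposite directions between gene5109 and gene5110, a pair chosen after its values were seen, of which gene5110 is not in the set. gene5109, of 733 bases on chromosome 4, had 0 counts in the 18-month hypothalamus replicate 1 and 58.9 to 135 CPM in the other 16 libraries of the choice. In the library without counts for gene5109, gene5110 had 17989 counts, against 2566 to 7169 in the other 17. The site reads of gene5109 there were 512 RPM, within the 273 to 602 RPM of those 16 libraries. In the left-out library gene5109 had 0 counts as well, while gene5110 was at 7169 counts. How reads were divided between such neighbours is not given in the sources used here, and its part in these values was not tested.

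Both tissues of a cow could be compared because the SNP genotypes identified 9 pairs of libraries, with 99.3% to 99.7% identical genotypes within a pair and 50.1% to 66.7% between pairs. Each pair held a pituitary and a hypothalamus library with the same age and replicate number. Over the 8 cows with both libraries in the choice, the levels in the 2 tissues correlated at 0.9 or above in 8 of the 300 (2.67%), against 0.771% of all 12325; this limit was chosen after the values had been seen. The median correlation over the set was 0.11, against 0.21 over all 12325. The set was chosen for its spread, on which the size of a correlation depends, so neither the shares nor the medians can be compared. The partners of the low 18-month pituitary replicate 2 and of the low 30-month hypothalamus replicate 2 were the 2 libraries with an intermediate fall of the largest cluster, at -0.74 and -0.93. The partners of the 2 low 6-month hypothalamus libraries were not lowered, at 0.17 and 0.21. The 6 libraries with a low or intermediate level of the largest cluster thus came from 4 cows.

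The closest match between tissues was gene11043 (r = 0.996, 749 bases, no exonic site). It measured 0.0527, 0 and 0 CPM in the 6-month pituitary, 22.1, 0 and 41.5 CPM in the 18-month pituitary and 29.6, 53.1 and 21.6 CPM in the 30-month pituitary. In the hypothalamus it measured 0.0599, 0.0316 and 0.0336 CPM at 6 months, 27.1, 0.117 and 17.6 CPM at 18 months and 40.7, 105 and 20.1 CPM at 30 months. It was thus near 0 in both tissues of the 3 youngest cows and of 1 cow of 18 months, and above 17 CPM in both tissues of the other 5.

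gene26301 (r = 0.971, 2953 bases, chromosome 23) was at 0 in both tissues of 1 cow of 6 months and 1 of 30 months, and at 0.225 and 0 CPM in another of 30 months. Both libraries of the other 6 cows lay between 6.95 and 23.5 CPM. Its site reads were at 0 in both tissues of the 2 cows at 0, and also in both tissues of the 18-month cow 1, where counts were 7.62 and 8.65 CPM. gene28153 (r = 0.967, 821 bases, chromosome 25) was lowest in both tissues of a 30-month cow, at 8.47 and 3.52 CPM, and its site reads did not follow, at 241 and 234 RPM there. gene16156 (r = 0.963, 1254 bases) measured 0.348 and 0.0814 CPM in both tissues of the 18-month cow 1 and at least 4.5 CPM in the other 16 libraries.

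**Figure D5:**
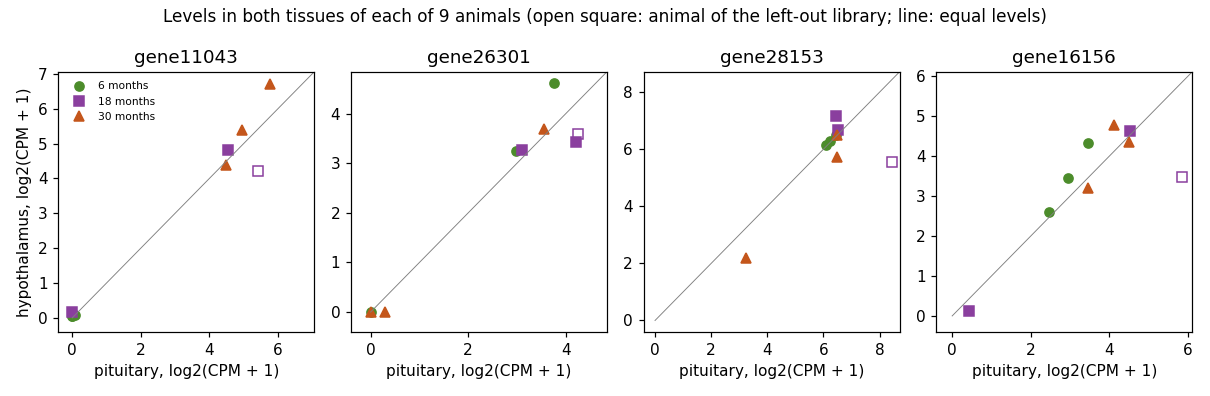
Levels of 4 gene models in the pituitary (horizontal) and the hypothalamus (vertical) of the same cow, as log2(CPM + 1), with symbols for age; the open square is the cow of the left-out library and the grey line marks equal levels. Points toward the lower left are cows in which both tissues were low.

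The study's comparisons of tissue and age were fitted on all gene models with edgeR's quasi-likelihood test, and p-values were adjusted over all gene models tested. Nothing in the labels says more of the replicates than that they are different cows. Between tissues, 0 of the 300 members and 0% of the 19707 gene models tested passed an adjusted p of 0.05. At an unadjusted p under 0.05 there were 44 members (14.7%, against 5.13% of all tested), 39 of them lower in the pituitary, and 35 of the 44 belonged to the second cluster. The smallest adjusted p of a member was 0.175, that of gene23337. DESeq2 called 15 members, 14 of them lower in the pituitary, where it called 0.451% of all tested. With the animal as a block, edgeR called 0 members. At an unadjusted p under 0.05 that fit had 23 of the 300 members, against 745 of all 19707 gene models tested. The set was chosen for its variance over the same libraries, and 3 of the 4 low libraries are hypothalamus.

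gene23337, of 13609 bases on chromosome 19, is named after its values were seen. Its pituitary values were 17.5, 17.5 and 14.3 CPM at 6 months, 24.5, 39.6 and 7.75 CPM at 18 months, and 17.6, 23.5 and 19.6 CPM at 30 months. Its hypothalamus values were 328, 180.2 and 317 CPM at 6 months, 135, 197 and 17 CPM at 18 months, and 19.1, 278 and 136 CPM at 30 months. The tissues did not overlap at 6 months and overlapped at 18 and 30 months, where the 18-month replicate 3 and the 30-month replicate 1 of the hypothalamus lay at pituitary levels. Its log2 fold change was -3.08 (SE 0.50, pituitary minus hypothalamus). Without either of those 2 libraries it was the 1 member that passed the edgeR test, and its correlation with site reads was 0.454.

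Among the ages of the pituitary 1 member passed, gene5026 (edgeR adjusted p = 0.0271), and it was the only call among 18555 gene models tested (0.00539%). At an unadjusted p under 0.05 there were 28 members (9.33%), against 7.6% of all tested, and DESeq2 called 12 members, against 1.37% of all tested. The set was chosen for its variance over largely the same libraries, so these shares cannot be compared. gene5026 has 1523 bases, with 5 coding sites between positions 94003181 and 94003649 of chromosome 4. Its pituitary counts were 4, 0 and 1 at 6 months, 1248, 1225 and 653 at 18 months, and 1464, 1301 and 1452 at 30 months. The groups at 18 and 30 months lay above that at 6 months without overlap. In the hypothalamus the counts were 740, 0 and 42 at 6 months, 2, 1268 and 1284 at 18 months, and 0, 905 and 2 at 30 months, so high and low libraries occurred at every age.

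Site reads of gene5026 in the pituitary were 185, 173 and 192 RPM at 6 months, 179, 184 and 118 RPM at 18 months, and 174, 163 and 192 RPM at 30 months. They overlapped between all ages, and the difference seen in the counts had no counterpart there. The edgeR call was lost without any 1 of 7 of the 9 pituitary libraries, with edgeR adjusted p from 0.0211 to 0.473 over the 9 libraries left out in turn. These 7 are the 3 libraries of 6 months, the 18-month replicate 2 and the 3 libraries of 30 months.

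Among the ages of the hypothalamus, edgeR called 0 of the 300 members and 0% of 18763 gene models tested. The smallest adjusted p of a member was 0.958. At an unadjusted p under 0.05 there were 14 members (4.67%), against 4.47% of all tested, and DESeq2 called 5 members, against 0.365% of all tested. Here too, the choice of the set by its variance keeps these shares from being compared.

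The left-out library could be set against the range of the other 17. It lay above that range in 54 of the 300 (18%) and below it in 42 (14%), against 22.3% and 35.3% of all 12325. The members were chosen for a wide range over these 17 libraries, so these shares cannot be compared. It raised 51 members (17%, against 12.9%) and lowered 109 (36.3%, against 27.7%), with median lengths of 2909 and 8164 bases. The 3′ share of its exonic site reads was 63.6%, and the part of this share in the levels was not tested. For the largest cluster its median deviation was -0.38, between the low libraries and the rest, with quartiles of -1.57 and 0.72.

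Members with exonic sites lay on all chromosomes but chromosome 27, where 114 gene models with such sites had passed the level minimum. Of the gene models with such sites past the level minimum, chromosome 3 held 16 of 561 (2.85%) as members. Chromosome 5 held 16 of 565 (2.83%) and chromosome 4 held 15 of 348 (4.31%). As a share of the gene models with sites past the level minimum, chromosome 21 had the most, 13 of 261 (4.98%), and chromosome 24 had 1 of 157 (0.637%). The share over all chromosomes together was not computed. Each chromosome holds few members and the shares were not tested, so they set no chromosome apart.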

How the data were processed

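The authors deposited read counts per gene model without normalization, FPKM (fragments scaled by gene model length and library size) for the same gene models, gene model lengths, and a table of SNP sites with a genotype and a depth as a count of reads per library, per the file headers. HISAT2, StringTie, GATK and DESeq are listed in the submitters' processing notes; their roles, versions, the genome build and the annotation are not given in the sources used here. Coordinates are printed as the SNP table gives them. All 18 count columns matched a library label.

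CPM, variances, clusters (1 minus Pearson correlation, average linkage), raised and lowered calls (log2 deviation of at least 1) and site-read correlations were computed with numpy 2.4.6, pandas 2.3.3 and scipy 1.17.1. Exonic sites are coding and untranslated-region sites. In R 4.3.3, edgeR 4.0.16 with limma 3.58.1 fitted a quasi-likelihood model to the counts of all gene models, after TMM scaling and filterByExpr by group, and p-values were adjusted by Benjamini-Hochberg. Tissues were compared over 18 libraries in 6 groups and ages over the 9 libraries of a tissue. Alternatives were RLE factors, no filter, DESeq2 1.42.0, each library left out, and the animal as a block. Pairs for the block were taken from genotypes at sites read at least 20 times in both libraries. DESeq2 gave no adjusted p for 3 members between tissues, 12 among pituitary ages and 15 among hypothalamus ages. The computations were tested on simulated data.

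Gene models named are the 12 of largest variance, the 3 closest to the mean of each cluster of at least 20 members, those past a test, the 2 on each side of the limit of the set, and the 5 highest and 5 lowest in site-read correlation; others were chosen after their values were seen. The set, lists, limits and tests were chosen with earlier results of these data known. Hormone and cell type marker lists were not run, because no symbol could be matched in the RefSeq table at hand.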

Additional observations from a re-analysis of the deposited data

How the results depend on the processing

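Of the 300 members, 195 were also among the 300 chosen from the authors' deposited FPKM, 215 with a pseudocount of 5, 230 with all 18 libraries, 245 and 238 with a median of at least 1 or 10 CPM, 295 with TMM factors and 253 to 292 with a library left out. The share of members with a site-read correlation of at least 0.7 was 69.6%; it was 58.5% over sites read in every library and 54.3% without the 4 libraries that lower the largest cluster, an alternative chosen after seeing the data; the cause of these differences was not tested. It lay between 66.7% and 74.9% with coding sites, all sites, at least 50 site reads, no site of 200 reads or more, or 18 libraries; the last 2 were added after seeing the data. DESeq2 called 15 members between tissues, 12 among pituitary ages and 5 among hypothalamus ages, where edgeR called 0, 1 and 0. With a library left out, edgeR called 0 to 1, 0 to 1 and 0 to 0. Members with an unadjusted p below 0.05 then numbered 29 to 79, 21 to 54 and 10 to 65. Between tissues, the fits with 29 and 79 members had 719 of 20400 and 1528 of 20397 gene models below 0.05. Among pituitary ages, the fits with 21 and 54 members had 692 of 19127 and 2800 of 19167. Among hypothalamus ages, those with 10 and 65 members had 800 of 19376 and 1354 of 19330. The replicate block, with libraries paired by genotype, called 0 members between tissues, as did the fit without it; ages lie between animals, so no block applies there. The adjusted p of gene5026 was 0.0251 with RLE factors and 0.016 without a filter. The largest cluster held 194 and 178 members with 4 and 8 clusters, against 190. Depth at called sites limits the site-read comparison, which 230 of the 300 members could enter, and no site exceeded 869 reads.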
